A study of Mus musculus with 2 samples.

Results

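The genes described here are 51 genes of smooth muscle contraction, of the serum response factor (SRF) programme and of actin stress fibres. They were taken from a fixed list of symbols, out of 18194 genes with a probe set annotated to a single gene, and the brightest probe set of a gene, by mean log2 signal over both arrays, stood for it. RNA came from 1 culture of Bmi1 null mouse embryonic fibroblasts (MEFs) and 1 culture of Bmi1 wild-type MEFs, each hybridised to 1 Affymetrix mouse expression array. Both lines were derived from littermates, carry the labels C57BL/6 and male, and had been immortalised by retroviral expression of TBX2, so the control cells also carry this T-box repressor. Each group is therefore 1 immortalised line, 1 culture and 1 array, and these cannot be told apart from the genotype. Bmi1 is a subunit of Polycomb repressive complex 1 that promotes ubiquitylation of histone H2A (uH2A), and the arrays were made to ask how expression differs in its absence. All ratios below are null over wild-type.

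Smooth muscle cells contract when calcium and calmodulin activate myosin light chain kinase, which phosphorylates the regulatory light chain of myosin II and lets it pull on actin filaments. SRF drives the genes of this apparatus by binding the CArG box, a short DNA element, together with myocardin in muscle or with the myocardin-related factors MRTF-A and MRTF-B in many other cells. The MRTFs are held in the cytoplasm by monomeric actin and are released when it assembles into filaments. Fibroblasts build stress fibres from general isoforms of the same proteins, and activated fibroblasts, called myofibroblasts, add isoforms of smooth muscle such as alpha-smooth muscle actin.

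Genes of the contractile apparatus had higher signal in null cells, and the larger differences lay among those restricted to smooth muscle. Signals under 100, which is 0.2 times the trimmed mean of an array, were treated as a floor. Of the 51 genes, 47 exceeded it on at least 1 array and are called measured. The 4 others, Myocd, Kcnmb1, Kcnma1 and Pdlim3, were below it on both. Null cells exceeded wild-type cells 2-fold or more for 14 of the 47 (29.8%, against 5.73% of all 11766 measured genes). The reverse held for 1 gene (2.13%, against 5.16%). At a threshold of 1.5-fold, added after the values were seen, 22 were higher (46.8%, against 12.5%) and 2 were lower, where 12.0% of all measured genes were lower. The log2 ratio was above 0 for 39 of 47 genes (83.0%, against 50.6% of all measured genes). The median log2 ratio was 0.53, and that of all measured genes was 0.01. Genes seen above the floor on 1 array only must differ in the direction of that array, so the 41 genes above it on both were also read alone. Of these 41, 11 were past 2-fold higher (26.8%, against 4.67% of all 10444 such genes) and 1 past 2-fold lower (2.44%, against 4.19%), and 35 had a log2 ratio above 0 (85.4%, against 49.3%). The genes were split by textbook knowledge into 15 largely restricted to smooth muscle, 29 of the general actin cytoskeleton and 7 of striated muscle or of all muscle. The split is not sharp. Csrp2, of vascular smooth muscle, was placed with the general genes. Synpo2, of smooth and skeletal muscle, and Ppp1r12b, enriched in muscle, were placed with the smooth-muscle-restricted ones. The median was 1.52 over 13 measured smooth-muscle-restricted genes, 0.38 over 28 general genes and 0.38 over 6 striated or all-muscle genes. The smooth-muscle-restricted median exceeded the general one by 1.15 on the log2 scale. Over the 8 smooth-muscle-restricted genes above the floor on both arrays it was 1.48.

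Neither group had a replicate, so no test was possible and all counts and folds are descriptions of 2 arrays. The error available was that between probe sets of 1 gene on the same pair of arrays. Its SD was 0.21 in log2 ratio where the dimmer probe set of a pair read 2000 or more (999 pairs), 0.28 for 500 to 2000 (2520 pairs) and 0.34 below 500 (3951 pairs). It covers the probes only, not cultures or lines. Bmi1 itself read 2146 in null and 9933 in wild-type cells (log2 ratio −2.21), but 831 and 931 at its other probe set, whose place relative to the deleted part is not known here. Against the shared label male, the Y-linked genes Eif2s3y, Uty and Kdm5d read 15.3 to 26.5 in null and 712 to 1683 in wild-type cells. The ratio of 3' to 5' signal of beta-actin, a measure of RNA integrity, was 1.15 in null and 1.20 in wild-type cells. For a gene under the floor on 1 array, the fold was taken against the floor and is a lower bound, given with the words at least.

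**Figure D1:**
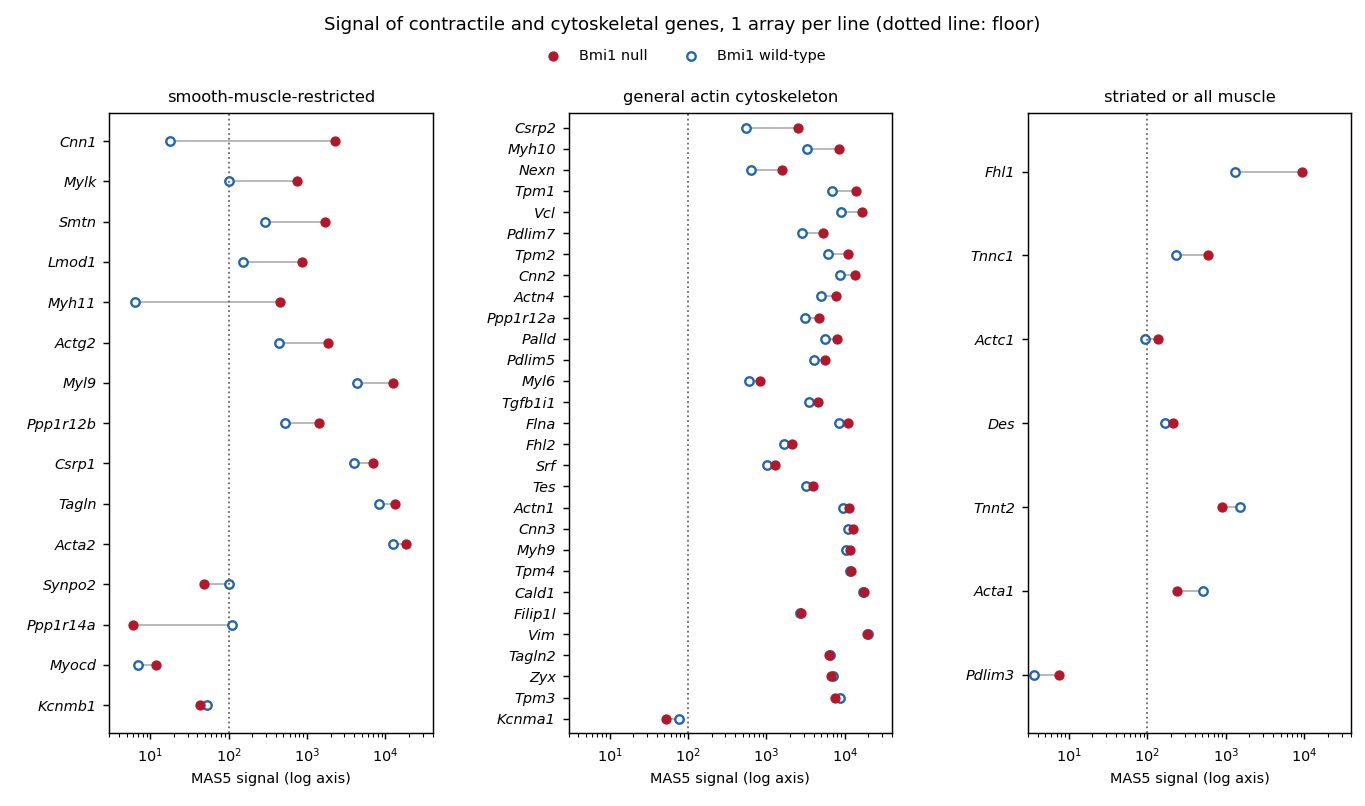
MAS5 signal (x axis, log scale) of each of the 51 genes on the Bmi1 null array (filled red) and the Bmi1 wild-type array (open blue), in 3 panels by class and ordered by log2 ratio, with genes below the floor of 100 on both arrays at the bottom. Each point is 1 array, and the grey line joins the points of 1 gene. Cnn1, at 2291 in null and 18.0 in wild-type cells, has the longest line, and Vim, at 19233 and 19519, has points that coincide.

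The promoters were searched for the CArG box because these genes were grouped by their link to SRF. The RefSeq table of build GRCm38.p6 held promoters (250 bases before to 50 after the annotated start) for 44 of the 51 genes. A full-consensus CArG box on either strand, which reads alike on both, was found for 10 of the 44 (22.7%), where 1.81% of all 27025 genes in the table had one. By class these were 1 of 11 smooth-muscle-restricted genes, 6 of 26 general genes and 3 of 7 striated or all-muscle genes. The windows below hold the box in capitals with up to 35 bases on each side, and are shown for genes whose signals are described next. They lie at chrX:56779546-56779625 (plus strand) for Fhl1, chr2:156775268-156775347 (plus) for Myl9, chr14:20929148-20929215 (plus) for Vcl, chr10:79988509-79988588 (plus) for Cnn2, chr17:46556180-46556279 (minus) for Srf and chr8:123894804-123894883 (minus) for Acta1.
Fhl1: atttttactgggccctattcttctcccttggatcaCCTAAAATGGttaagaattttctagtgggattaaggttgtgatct
Myl9: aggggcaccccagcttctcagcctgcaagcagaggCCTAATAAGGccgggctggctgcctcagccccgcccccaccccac
Vcl: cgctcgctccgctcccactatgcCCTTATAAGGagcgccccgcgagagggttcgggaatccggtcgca
Cnn2: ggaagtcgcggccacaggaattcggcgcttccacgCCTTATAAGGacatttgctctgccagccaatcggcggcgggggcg
Srf: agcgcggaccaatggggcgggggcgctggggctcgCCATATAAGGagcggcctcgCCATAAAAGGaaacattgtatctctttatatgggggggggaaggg
Acta1: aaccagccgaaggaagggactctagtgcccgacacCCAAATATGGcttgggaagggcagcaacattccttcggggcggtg
The box began 102 bases before the start in Fhl1, 161 in Myl9, 227 in Vcl, 56 in Cnn2 and 73 in Acta1. Srf, which is known to regulate its own gene, had boxes beginning 82 and 62 bases before the start. The remaining genes with a box were Actc1, Fhl2, Myl6 and Filip1l. Among genes with a promoter in the table, presence of the box in this window did not go with a larger ratio. The median log2 ratio was 0.45 over the 10 measured genes with a box, 2 of them at least 2-fold higher (Fhl1 and Myl9), and 0.47 over the 31 measured genes without, of which 8 were. This comparison lacks the rest of the 14 members at least 2-fold higher, whose promoters were not in the table. It holds 11 of the 15 smooth-muscle-restricted genes. Boxes outside the window were not examined, and a match of letters does not show binding.

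Calponin gave the largest ratio of the list. Cnn1, a thin filament protein that marks differentiated smooth muscle, read 2291 in null and 18.0 in wild-type cells, at least 22.9-fold higher. Smtn, which encodes the smooth muscle protein smoothelin, read 1695 in null and 290 in wild-type cells (5.85-fold higher), and Lmod1, an actin filament nucleator of smooth muscle, 854 and 153 (5.58-fold). The ratios of Smtn and Lmod1 exceeded the probe set SD at their signals several times over. The ratio of Cnn1 is a bound against the floor, which that SD does not cover. Each of the 3 genes had 1 probe set. Tagln, encoding transgelin (SM22-alpha), an early smooth muscle marker, read 13058 in null and 8334 in wild-type cells, 1.57-fold higher. Synpo2, an actin-bundling protein of smooth and skeletal muscle, was near the floor, at 48.2 in null and 102 in wild-type cells, so that almost no range was left to measure a difference.

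Actin isoforms did not move as a unit. Actg2, the enteric smooth muscle actin, read 1855 in null and 433 in wild-type cells, 4.28-fold higher. Acta2, the alpha-smooth muscle actin used as the marker of myofibroblasts, read 18218 in null and 12575 in wild-type cells, 1.45-fold higher. That value comes from a probe set with the suffix _s_at, which marks probes that match more than a single transcript. A probe set of Acta2 without the suffix read 793 in null and 63.4 in wild-type cells, at least 7.93-fold higher, and the remaining one read 123 and 77.6. How much of the difference between these Acta2 probe sets lies in the probes was not tested. The skeletal actin Acta1 went the other way, at 237 in null and 514 in wild-type cells (2.17-fold lower), and was the only member at least 2-fold lower. Cardiac actin Actc1 was close to the floor, at 135 in null and 94.6 in wild-type cells. The cytoplasmic actins Actb and Actg1, which are no members of the list, differed by log2 ratios of 0.03 and 0.03.

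Myosin II and the proteins that control it had a log2 ratio above 0 for 8 of 9 measured genes, where 50.6% of all measured genes did, and 5 were past 2-fold, where 5.73% were. The 6 genes above the floor on both arrays were all above 0 (49.3% of all such genes were), with a median log2 ratio of 0.97. Of these 6, 3 were past 2-fold higher (4.67% of all such genes were). Myh11, the smooth muscle myosin heavy chain and a late marker of that lineage, read 449 in null and 6.31 in wild-type cells (at least 4.49-fold higher). Myl9, the regulatory light chain that the kinase phosphorylates, read 12549.7 in null and 4363 in wild-type cells (2.88-fold higher). Mylk, the myosin light chain kinase, read 749 in null and 99.97 in wild-type cells (at least 7.49-fold higher). Its other probe sets, also below the floor in wild-type cells, read 178 and 109 in null cells. Targeting subunits of the phosphatase that reverses the kinase were higher too. Ppp1r12b, enriched in muscle, read 1412 in null and 520 in wild-type cells (2.72-fold higher), and the widely expressed Ppp1r12a 4716 and 3101 (1.52-fold). The 3 other probe sets of Ppp1r12b read at most 101 in null and 99.2 in wild-type cells, so its fold rests on 1 probe set. Ppp1r14a (CPI-17), a phosphatase inhibitor of smooth muscle, read 6.02 in null and 111 in wild-type cells. With the wild-type value this close to the floor, it was at least 1.11-fold lower.

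**Figure D2:**
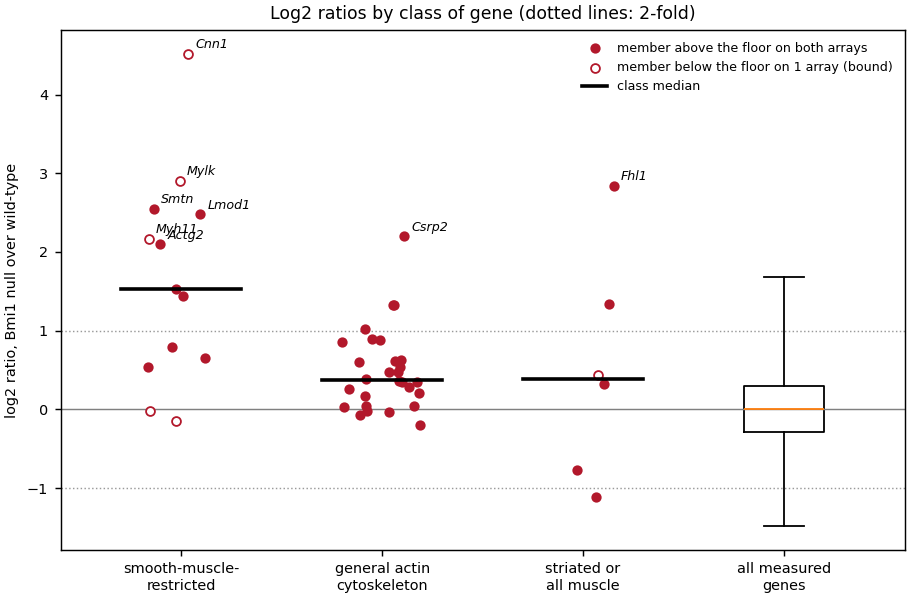
Log2 ratio, null over wild-type (y axis), of each measured gene (points) in the 3 classes, beside a box plot of all measured genes (line at the median, box over the quartiles, whiskers over the central 95%). Filled points were above the floor on both arrays, open points on 1 array only, which makes them lower bounds of the difference, and black bars are class medians. The smooth-muscle-restricted median of 1.52 lies above the general and striated medians, both at 0.38.

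In the calponin, transgelin and myosin heavy chain families the smooth muscle isoform had the larger ratio. The order was the reverse in the cysteine-rich LIM family, where Csrp1 of the smooth-muscle-restricted class had a log2 ratio of 0.79 and Csrp2 of the general class 2.20. Among phosphatase genes, Ppp1r14a of the smooth-muscle-restricted class lay below Ppp1r12a of the general class. Among calponins, Cnn1 was at least 22.9-fold higher, Cnn2 read 13520.1 in null and 8716 in wild-type cells (1.55-fold higher) and Cnn3 12589 and 10941 (1.15-fold). Among transgelins, the log2 ratio was 0.65 for Tagln and −0.04 for Tagln2, an isoform of many cell types that read 6349 in null and 6509 in wild-type cells. Among myosin II heavy chains, Myh10 (non-muscle myosin IIB) read 8344 in null and 3316 in wild-type cells (2.52-fold higher), while Myh9 (non-muscle myosin IIA) read 11482 and 10226 (1.12-fold). Myh10 had a single measured probe set, and 4 measured probe sets of Myh9 spanned log2 ratios of 0.04 to 0.18. The 2 non-muscle heavy chains therefore differed by more than the probe set SD of 0.21. The light chain Myl6, shared by smooth and non-muscle myosin, read 826 in null and 597 in wild-type cells, a log2 ratio of 0.47 against 1.52 for Myl9.

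Tropomyosins, which wrap actin filaments, fell into a higher pair and a level pair. Tpm1 read 13885 in null and 6865 in wild-type cells (2.02-fold higher), and its 3 measured probe sets gave log2 ratios of 1.00 to 1.03. Tpm2 read 11027 in null and 6089 in wild-type cells (1.81-fold higher, with 0.58 to 1.25 on the log2 scale at its other probe sets). Both genes are major tropomyosins of muscle and also make long isoforms in stress fibres. Tpm3 read 7565 in null and 8716 in wild-type cells (1.15-fold lower) and Tpm4 11892 and 11548 (1.03-fold higher). Neither ratio exceeded the probe set SD at these signals, although the other measured probe sets of Tpm3 gave −0.29 and −0.52 on the log2 scale.

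**Figure D3:**
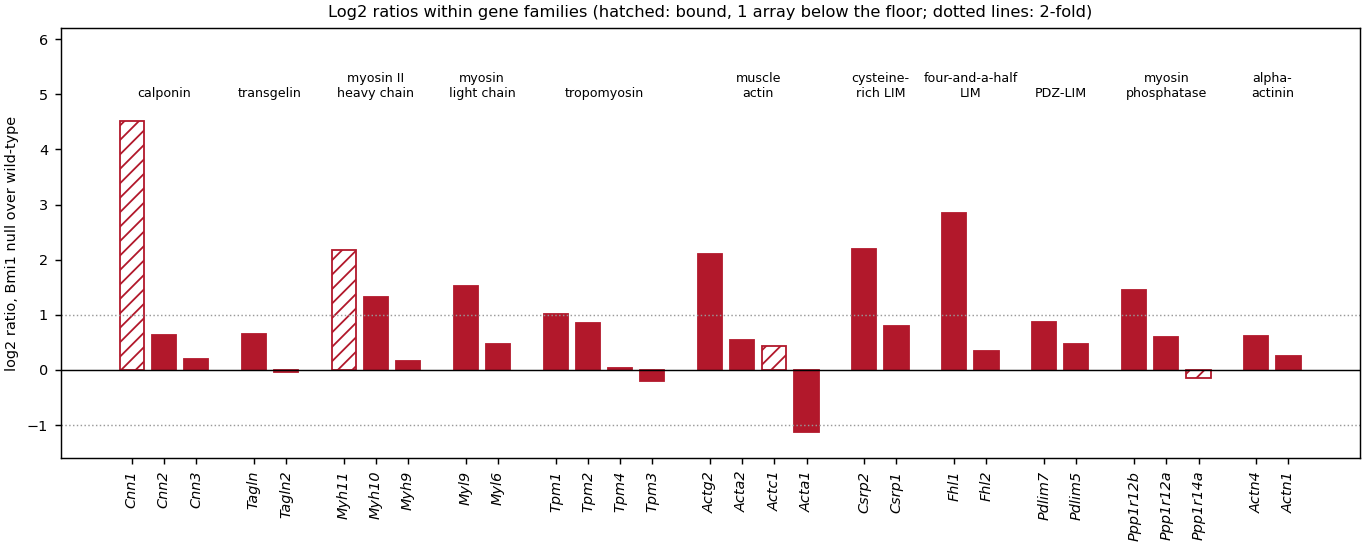
Log2 ratio, null over wild-type (y axis), of the measured members of 11 gene families (bars, ordered by ratio within a family). Hatched bars are bounds for genes below the floor on 1 array. Cnn1, Myh11, Fhl1 and Csrp2 stand above the other members of their families, and Acta1 at −1.12 is the lowest bar.

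The general cytoskeletal genes were mostly higher by smaller amounts. Of 28 measured, 24 had a log2 ratio above 0 (50.6% of all measured genes did) and 10 reached 1.5-fold higher (12.5% did). A 2-fold higher signal was seen for 4 (5.73% of all measured genes) and a 2-fold lower one for 0 (5.16%). Those at least 2-fold higher were Myh10, Tpm1, Csrp2 and Nexn. Csrp2, a LIM protein of vascular smooth muscle that can act with SRF, read 2528 in null and 551 in wild-type cells (4.59-fold higher), while its relative Csrp1, placed with the smooth-muscle-restricted genes, read 6960.2 and 4012 (1.73-fold). Nexn, which encodes the filament-binding protein nexilin, read 1577 in null and 631 in wild-type cells (log2 ratio 1.32). At cell adhesions, Vcl (vinculin) read 16667 in null and 8950.05 in wild-type cells (1.86-fold higher), with a log2 ratio of 1.19 at its second probe set. The crosslinkers Actn4 and Actn1 (alpha-actinins) were 1.54-fold and 1.19-fold higher, Palld (palladin) 1.45-fold and Flna (filamin A) 1.29-fold. Pdlim7 and Pdlim5, adaptors of stress fibres, were 1.84-fold and 1.38-fold higher.

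Several cytoskeletal genes differed by less than the probe set error. Vim, the intermediate filament of mesenchymal cells, read 19233 in null and 19519 in wild-type cells, Cald1 (caldesmon) 17410.2 and 16973, Zyx (zyxin) 6675 and 7022, and Filip1l 2755 and 2707. Their log2 ratios ran from −0.07 to 0.04 at these probe sets. Vim read close to the highest signal of each array (22149 in null and 23377 in wild-type cells) at all its probe sets. Whether a difference would register at signals that bright was not tested. A dim probe set of Cald1 read 109 in null and 206 in wild-type cells (log2 ratio −0.91). Its remaining measured probe sets gave 0.02 and 0.09. Differences above that error but below 1.5-fold were also seen. The LIM proteins Tes and Tgfb1i1 (Hic-5), found at adhesions, had log2 ratios of 0.29 and 0.38. Flna and Tpm4 are the members whose promoters the study lists as carrying a peak of Bmi1-dependent uH2A. Both belong to the general class, whose median was 0.38, and their log2 ratios were 0.37 and 0.04. How common such promoters are among all genes was not examined here, so no link between the list and uH2A is read from Flna and Tpm4.

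Signal strength differed between the classes, since general genes were bright and several smooth muscle genes dim. Ratios of all members together were also read by the brighter of the 2 signals. The classes were not compared at like signal, so these values do not separate class from signal strength. Among 18 members reading 8000 or more on either array, the median log2 ratio was 0.54, against −0.02 over all 436 genes of that strength. Of these 18 members, 8 were at least 1.5-fold higher, where 10.6% of the 436 genes were. Among 13 members of 2000 to 8000 the median was 0.47, and among 16 members under 2000 it was 0.90. For all genes of these strengths the medians were −0.01 and 0.01.

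Genes of striated muscle showed no common direction. Fhl1, a LIM protein of skeletal muscle that many cells also express, read 9444 in null and 1315 in wild-type cells, 7.18-fold higher. Its general relative Fhl2 read 2152 in null and 1686 in wild-type cells (1.28-fold higher). Tnnc1, the troponin C of slow skeletal and cardiac muscle, read 596 in null and 235 in wild-type cells (2.54-fold higher), whereas the cardiac troponin T gene Tnnt2 read 894 and 1531 (1.71-fold lower). Its second measured probe set gave a log2 ratio of −0.84. Des, encoding the muscle intermediate filament desmin, read 213 in null and 170.1 in wild-type cells, and Pdlim3, a PDZ-LIM protein of the muscle Z-disc, was under the floor at 7.55 in null and 3.59 in wild-type cells. The skeletal and cardiac markers checked outside the list were nearly silent. Of 12 skeletal markers, among them the master regulators Myod1 and Myog, 11 were below the floor on both arrays, and Ckm read 124 in null and 204 in wild-type cells. All 7 cardiac markers were below it, with highest readings of 55.4 in null and 97.2 in wild-type cells.

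The transcription factors of the programme were examined next. Myocd, the smooth and cardiac muscle coactivator, read 11.9 in null and 6.89 in wild-type cells, below the floor on both arrays. Srf read 1298 in null and 1022 in wild-type cells (1.27-fold higher), but 508 and 520 at its other probe set (log2 ratio −0.03), so its 2 probe sets disagreed by more than the ratio itself. Of the cofactors in a list of 5, all lay within 2-fold, where 10485 of all 11766 measured genes did too. Mrtfa (also Mkl1) read 1545 in null and 880 in wild-type cells (1.75-fold higher), and Mrtfb (Mkl2) 1310 and 1894 (1.45-fold lower). The ternary complex factors Elk1, Elk3 and Elk4, which link SRF to growth signals, had log2 ratios of −0.29, −0.50 and 0.14.

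Further genes of smooth muscle, some of them shared with striated muscle, were also mostly higher, with many of them dim. The list itself holds 2 subunits of the BK potassium channel that relaxes smooth muscle, and both were under the floor, Kcnma1 at 52.1 in null and 76.4 in wild-type cells and Kcnmb1 at 43.1 and 53.7. Of 20 genes outside it, 18 matched the array and 13 were measured. However, 6 of the 13 passed the floor in null cells only, which sets their direction. Of the 7 genes above it on both arrays, 6 had a log2 ratio above 0 (49.3% of all such genes did), 3 reached 2-fold higher (4.67% did) and 0 reached 2-fold lower (4.19% did), with a median of 0.40. Mrvi1 (IRAG), a target of cGMP kinase that restrains calcium release, read 1606 in null and 134 in wild-type cells (11.9-fold higher). Jph2, which couples membrane systems in striated as well as smooth muscle, read 1404 in null and 161 in wild-type cells (8.74-fold). The small heat shock protein Hspb6 read 1473 and 347 (4.25-fold). Not all genes took part, since Pln, Pgm5 and Itga1 were below the floor on both arrays and Itga7 read 168 in null and 223 in wild-type cells.

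Other cell types were checked through their markers, because in bulk RNA a change in the share of a cell type and a change in RNA per cell cannot be told apart. Of 7 pericyte and vascular mural markers, 3 were measured. Mcam read 2323 in null and 158 in wild-type cells (14.7-fold higher), Cspg4 317 and 911 (2.87-fold lower) and Notch3 192 and 86.8. Rgs5, Abcc9, Kcnj8 and Higd1b, the others, were below the floor on both arrays, and the summed signal of the 7 was 3002 in null and 1273 in wild-type cells, but 679 and 1115 without Mcam. All 10 fibroblast markers were measured, of which 3 reached 2-fold higher (5.73% of all measured genes did) and 2 reached 2-fold lower (5.16% did). Their summed signal was 96120.0 in null and 79663 in wild-type cells, and 61070.1 in null and 68186 in wild-type cells without the collagens Col3a1 and Col1a1. These were left out as the markers whose signal rose most, which lowers the null sum by choice. A further collagen, Col1a2, stayed in at 17030 in null and 15048 in wild-type cells. Another of its probe sets read 16952 and 6616. Col3a1, Lum and Col1a1 were 4.38-fold, at least 7.29-fold and 2.16-fold higher, and Pdgfra was 9.31-fold lower. Thy1, a surface marker of many fibroblasts, read 50.7 in null cells, under the floor, and 375 in wild-type cells. Of 5 epithelial markers 1 was measured, Epcam, at 834 in null and 149 in wild-type cells by an _x_at probe set. Its other probe set was under the floor, at 11.5 in null and 5.82 in wild-type cells. Of 5 endothelial markers 2 were measured, with Cdh5 at 29.2 in null and 208 in wild-type cells. The part of other cell types in the contractile ratios was not tested.

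Further probe sets of the same genes were read for direction within these arrays. Of the 51 genes, 23 had at least 2 measured probe sets. Ratios of a gene shared a sign in 18 of the 23. A probe set above the floor in null cells only must give a ratio above 0. This holds for every measured probe set of Mylk and for the dimmer ones of Acta2, Des and Ppp1r12b, so their agreement was fixed in advance. The share of all genes whose probe sets share a sign was not computed. The 5 others were Tagln2, Vim, Cald1, Srf and Zyx, whose brightest probe sets gave log2 ratios of −0.07 to 0.34. Of the 14 genes past 2-fold, however, 11 had a single measured probe set. The exceptions were Tpm1, whose probe sets were alike, and Mylk and Ppp1r12b, whose other probe sets were dim. Pdlim5, with 7 measured probe sets, gave log2 ratios of 0.22 to 0.56, and Cnn3, with 6, of 0.20 to 0.45. Both were above 0 at every measured probe set.

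**Figure D4:**
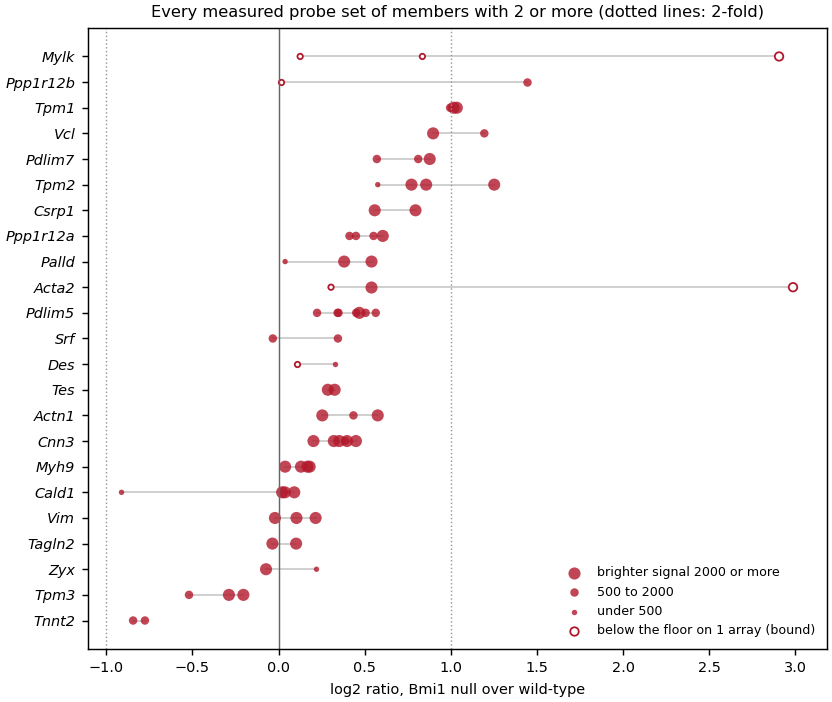
Log2 ratio, null over wild-type (x axis), at every measured probe set of the 23 genes with at least 2 (rows, ordered by the ratio of the brightest probe set). Point size gives the brighter of the 2 signals and open points are bounds. Pdlim5 spans 0.22 to 0.56, whereas the probe sets of Acta2 run from 0.30 to 2.99.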

How the data were processed

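Total RNA of each line was primed with oligo(dT) carrying a T7 promoter, and biotinylated cRNA was hybridised to an Affymetrix mouse array, 1 per line. The authors computed and deposited linear signal intensities per probe set with MAS5. Scaling settings are not given in the sources used here. The mean after trimming 2% at each end was 500.003 on both arrays, which removes any change common to most transcripts.

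Of 45101 probe sets, 34958 had 1 symbol. Those with several were not used. Symbols were updated through Entrez identifiers (0 changed). Signals below 0.2 trimmed means were set to that floor before log2. Probe set error was the SD of differences between neighbouring probe sets of a gene over the square root of 2. No p-value can be given with 1 array per group. The genes and lists were chosen with earlier results of these data known. Signals are given for each gene that differed 2-fold, its family, Srf and Myocd, and for up to 4 genes per further list (2-fold, brighter signal at least 1 trimmed mean). Some others were named after their values were seen. A further gene list is not reported here. The steps were tested on simulated arrays. These had less noise than the probe set error, and changes were planted only in genes well above the floor. They do not cover dim genes. Alternatives covered the floor, scaling and choice of probe sets. Python 3.11.15, numpy 2.4.6, pandas 2.3.3 and matplotlib 3.10.9 were used.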

Additional observations from a re-analysis of the deposited data

How the results depend on the processing

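No paired analysis was possible because each group had 1 array. Under 8 alternative settings the counts of genes at least 2-fold higher in null cells stayed between 12 and 15 (14 as reported), and the difference between the smooth-muscle-restricted and general medians between 0.91 and 1.42. None of the ratios at least 2-fold changed sign. With a floor of 0.1 trimmed means, and also without a floor, 3 genes were at least 2-fold lower, the additions being Synpo2 and Ppp1r14a, both dim. Without probe sets ending in _s_at, _x_at or _a_at, 36 genes were left, 0 were at least 2-fold lower, since Acta1 had no other probe set, and the smooth-muscle-restricted median was 1.85. Acta2 was then at least 2-fold higher. With a pseudocount of 0.1 trimmed means in place of the floor, Acta1 was no longer 2-fold lower and Ppp1r14a was. With the mean of measured probe sets, Ppp1r12b was no longer past 2-fold and Acta2 and Vcl were. Reading the genes above the floor on both arrays alone, a choice made after seeing the data, gave 11 higher and 1 lower. At 1.5-fold, a threshold chosen after seeing the data, the counts were 22 higher and 2 lower. Over all measured genes the median log2 ratio stayed between −0.01 and 0.04, and without a floor 2347 genes reached 2-fold higher and 1580 reached 2-fold lower, in place of 674 and 607. Precision beyond the probe sets is limited by the number of arrays.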

Other observations

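Adhesion and stress fibre genes outside the list were also mostly higher in null cells. Of 23 such genes, 21 matched the array and 20 were measured. Of these, 17 had a log2 ratio above 0 (50.6% of all measured genes did) and 6 reached 2-fold higher (5.73% did). A 2-fold lower signal was seen for 0 (5.16% of all measured genes). The median was 0.57. Synpo (synaptopodin), an actin-binding protein of podocytes and dendritic spines, read 2955 in null and 577 in wild-type cells (5.12-fold higher). Limch1, an activator of non-muscle myosin II, read 1169 in null and 249.2 in wild-type cells (4.69-fold), and its second measured probe set gave 5.68-fold. Svil (supervillin), which binds myosin II and actin, read 4526 in null and 1909 in wild-type cells (2.37-fold higher), but only 1.13-fold higher at its other probe set. Enah (Mena), which lengthens actin filaments, was 2.14-fold and 1.92-fold higher at its 2 measured probe sets. Core proteins of adhesions ran from level to higher, with log2 ratios of −0.03 for Pxn (paxillin), 0.17 for Tln1 (talin) and 0.30 for Ilk, and of 0.55 for Lims1, 0.59 for Fermt2, 0.68 for Parva and 0.82 for Bcar1. Lima1, a crosslinker known as EPLIN, and Flnc, the muscle filamin, were on the lower side at −0.60 and −0.50.

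The smaller PDZ-LIM relatives of Pdlim5 and Pdlim7 followed the list. Pdlim1 read 7784 in null and 5861 in wild-type cells (1.33-fold higher), Pdlim2 3336 and 2184 (1.53-fold), and Pdlim4 437 and 112 (3.89-fold).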
